A study of Mus musculus with 18 samples.

Results

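The 9 posterior libraries of a mouse RNA sequencing series of 18 libraries were compared by genotype, 4 from embryos mutant for Meis1 and Meis2 (double knockout, DKO) against 5 from control embryos. Members were taken from the region and genotype labels. The embryos were at embryonic day 9, and each gave a posterior piece, the axial bud with its 10 to 12 youngest somites, and an anterior piece, the remaining somite-bearing axis. Posterior controls 1 to 5 had 23, 20, 24, 21 and 23 somites, and posterior DKO libraries 1 to 4 came from embryos with 22, 24, 20 and 23. In the mutants both genes had been removed conditionally by Delta1Cre, a recombinase line named for Delta1 (now Dll1), so cells outside the domain of that driver keep their alleles. The alleles and any Cre of the control embryos are not given in the labels. Each posterior library had its own combination of genotype, sex label and somite number, and n counts embryos.

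Meis1 and Meis2 encode homeodomain transcription factors of the TALE class, which bind DNA with Pbx and Hox proteins and so take part in giving axial levels their identity. Dll1 is a Notch ligand of the presomitic mesoderm, the tissue that is cut into somites behind the axial bud. The series addressed which Meis targets act in skeletal patterning along the body axis, and the posterior piece stands for the early phase, when somites form.

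The libraries held 15.01 to 38.18 M (megacounts) of expected counts, so that 3 counts, used as a floor, were worth 0.0786 to 0.200 counts per megacount of the library (CPM). Mitochondrial transcripts took 1.05% to 1.49%. The pieces carried the markers of their region. In controls, 15 of 15 tested Hox genes of paralogue groups 9 to 13 were higher in the posterior than in the anterior piece (median log2 difference 6.92), as were 18 of 20 axial bud genes (median 1.62) and 18 of 21 presomitic genes (median 1.05). Control 1 is labelled female, but 4 Y-linked genes summed to 162 CPM there and Xist was at 0.21 CPM. In a principal component analysis the first axis held 21.6% of the variance and ran from control 5 (−59.1) to DKO 4 (34.6), with the other libraries between −15.6 and 15.8. The second held 17.5% and ran from DKO 4 (−50.9) to control 2 (33.1), so neither axis parted the genotypes.

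Of 15936 genes tested with edgeR's quasi-likelihood test, 2 passed an adjusted p of 0.05, which is 0.0126% of the genes, and they went in opposite directions. Without adjustment, 1754 genes (11%) had a p below 0.05, 840 of them higher (5.27%) and 914 lower (5.74%). In 675 genes (4.24%) all DKO libraries lay on the same side of all controls, 322 above them (2.02%) and 353 below (2.22%). By sign alone 52.4% of the genes were higher in DKO, and the median log2 fold change was 0.01. These shares are the background for every group described here. DESeq2 passed 156 genes (74 higher, 82 lower), and leaving out DKO 2 gave 24 (7 higher, 17 lower) with edgeR.

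The 2 genes that passed are noncoding. Letters with the core of a Meis site are shown for the start of 4930481B07Rik and for that of Dll1, which overlaps the called A930024N18Rik. The start of A930024N18Rik itself was not searched. The sequences are bases before RefSeq start sites (GRCm38.p6), on the strand of the gene, and capitals mark TGACAG or its reverse complement. For 4930481B07Rik the stretch is chr3:95015449-95015528 on the plus strand, between this gene and the neighbouring Zfp687. For Dll1, whose start region lies inside the called transcript A930024N18Rik, it is chr17:15376933-15377182 on the minus strand. Dpf3, a lower protein-coding gene named further on, has the stretch chr12:83487737-83487986 on the minus strand.
4930481B07Rik: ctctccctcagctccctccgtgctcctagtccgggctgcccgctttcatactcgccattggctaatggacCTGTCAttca
Dll1: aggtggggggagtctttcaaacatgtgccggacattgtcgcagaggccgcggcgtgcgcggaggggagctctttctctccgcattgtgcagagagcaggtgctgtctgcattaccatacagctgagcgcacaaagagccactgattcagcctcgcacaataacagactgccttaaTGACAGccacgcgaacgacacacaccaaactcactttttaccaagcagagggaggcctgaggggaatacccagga
Dpf3: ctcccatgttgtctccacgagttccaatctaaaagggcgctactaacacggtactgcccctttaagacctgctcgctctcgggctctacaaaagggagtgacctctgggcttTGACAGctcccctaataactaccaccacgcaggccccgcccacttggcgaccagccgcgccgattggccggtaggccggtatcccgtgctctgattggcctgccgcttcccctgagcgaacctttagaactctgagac
The core begins 10 bases before the start of 4930481B07Rik, 75 before the Dll1 start shown and 138 before that of Dpf3. Another Dll1 start window, chr17:15375824-15376073, also holds a core and is not shown. Over the 250 bases before each start, TGACAG on either strand was found in 4 of 22 genes (18.2%) among the called and the 24 protein-coding genes named by rule that have a window, against 4851 of 27025 genes (18%) in the whole table. Besides 4930481B07Rik and Dpf3, these were Sesn2 and Mecom, and Mecom has another window without it.

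Reads of Meis1 and Meis2 remained in every DKO library. Posterior Meis1, on chromosome 11 (18879817 to 19018985, minus strand), was counted at 92.4, 59.3, 99.2, 86.6 and 82.7 CPM in controls 1 to 5, against 48.7, 71.3, 46.4 and 62.6 CPM in DKO 1 to 4. Control 2 lay below DKO 2 and DKO 4, so the groups overlapped. The log2 fold change was −0.55 (SE 0.158, edgeR adjusted p = 0.336). Meis2, on chromosome 2 (115863064 to 116065839, minus strand), had 147, 116, 150, 138 and 161 CPM in the same controls, against mutant values of 96.6, 115, 92.7 and 91.6 CPM. Its groups did not overlap, though control 2 and DKO 2 nearly met, and the log2 fold change was −0.52 (SE 0.0983, adjusted p = 0.196). DESeq2 put both past the threshold (adjusted p = 0.0454 for Meis1 and 0.000504 for Meis2). In bulk pieces, fewer cells of a type and less RNA per cell cannot be told apart, and counts per gene do not show whether reads cover deleted exons.

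A930024N18Rik, a long intergenic noncoding RNA, rose 9.42-fold. It lies on the plus strand of chromosome 17 from 15375000 to 15379475 and overlaps the oppositely transcribed Dll1 by 1873 bases. Controls 1 to 5 were at 0.263, 0.256, 0.351, 0.271 and 0.326 CPM, close to the floor of the libraries. DKO 1 to 4 reached 3.26, 1.796, 3.34 and 2.68 CPM, and the lowest of them, DKO 2, was still far above every control. The log2 fold change was 3.24 (SE 0.269, adjusted p = 0.0014). Dll1 itself was at 132 ± 16.1 CPM in controls and 146 ± 20.7 CPM in DKO (SD, n = 5 and 4, as throughout), a log2 fold change of 0.14 with an unadjusted p of 0.204. Whether the counting used the read strand is not given in the sources used here, so reads of these 2 genes cannot be told apart with certainty. The mutants also carry Delta1Cre, the driver named for Dll1, and any Cre of the controls is not given in the labels. At this locus, loss of Meis and presence of the driver therefore cannot be told apart.

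4930481B07Rik, a processed transcript on the plus strand of chromosome 3 (95015625 to 95020138), fell in the DKO libraries. Control values were 3.76, 5.72, 3.51, 4.23 and 4.56 CPM, against 0.788, 0.691, 1.06 and 0.875 CPM in the mutants. Every DKO library was below the lowest control, and DKO 2 was the lowest of all 9. The fall came to −2.36 on the log2 scale (SE 0.217, adjusted p = 0.00202). The divergent neighbour Zfp687 had a log2 fold change of −0.09 (SE 0.0619, unadjusted p = 0.17). A930024N18Rik passed in all 19 alternatives in which it was tested and 4930481B07Rik in all 20.

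**Figure D1:**
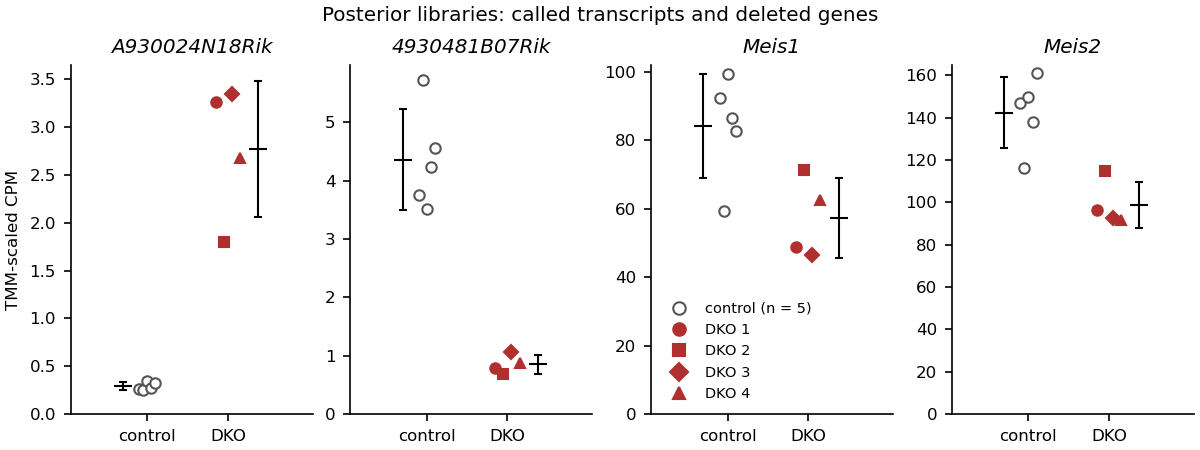
TMM-scaled CPM (vertical axes, each from 0) of the 2 transcripts past the threshold and of Meis1 and Meis2 in the 9 posterior libraries; open circles are controls, red symbols the DKO libraries, and the bars the mean and SD. A930024N18Rik and 4930481B07Rik are separated by a wide gap, while for Meis1 control 2 (59.3 CPM) lies within the DKO range of 46.4 to 71.3 CPM.

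Among protein-coding genes averaging 50 counts or more, 556 did not overlap between groups, 262 higher and 294 lower in DKO. Genes of all biotypes with that mean numbered 12551, and over all genes tested 4.24% did not overlap. The 12 protein-coding genes of each direction with the smallest p are described here. They were chosen by that p, so their separation is not a finding, and none passed the adjusted threshold in edgeR's test of the 9 libraries. In edgeR alternatives 19 passed with all 18 libraries in 1 fit, 10 with no filter on low counts, 9 without DKO 2, 5 with somite number as covariate, and Cdkn1a alone without control 2 or with sex as covariate. The fit of all 18 libraries, here and below, had no term for the embryo and treated both pieces of an embryo as independent. DESeq2 placed all 24 below 0.05, with adjusted p from 8.46e-10 (Slitrk6) to 0.00873 (Dpf3). It used the same counts and passed 156 genes in all, so for genes chosen by p this is not separate evidence. In 16 of the 24, DKO 2 was the mutant library nearest to the controls.

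Higher genes included H2-K1, a class I histocompatibility heavy chain on chromosome 17. It was at 14.97, 17.4, 17.7, 17.6 and 19.8 CPM in controls and at 31.4, 24.5, 28.2 and 29.9 CPM in DKO, with all mutants well above all controls. Its log2 fold change was 0.71 (SE 0.103, adjusted p = 0.0972). Cdkn1a, the cyclin-dependent kinase inhibitor p21, stood at 12.8, 18.3, 11.6, 12.5 and 12.3 CPM against 33.3, 20.6, 32.4 and 26.5 CPM. Control 2 was the highest control and DKO 2 the lowest mutant, and the difference was 1.06 on the log2 scale (SE 0.167, adjusted p = 0.0978). Sesn2, a stress-induced regulator of growth signalling, was at 18.2 to 23.1 CPM in controls and 29.8 to 40.1 CPM in DKO (log2 fold change 0.68). Hes5, a Notch effector of neural progenitors, was at 13.97 to 19.8 CPM and 21.5 to 32.6 CPM (0.69). Zfp365, a zinc finger gene, had the largest change of the 12, from 2.06 ± 0.539 to 4.95 ± 1.69 CPM (1.27).

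Of the remaining higher genes, Slc27a4, a fatty acid transport protein, was at 39.5 ± 2.36 CPM in controls and 53.1 ± 3.71 CPM in DKO. Pltp, which transfers phospholipids between lipoproteins, was at 18.4 ± 1.91 and 25.3 ± 0.735 CPM. Cd63, a tetraspanin of late endosomes, had a small but tight difference, with controls at 87.9 to 91.4 CPM and mutants at 106 to 118 CPM (log2 fold change 0.31, SE 0.0493). Tmem97, an endoplasmic reticulum protein of sterol handling, differed by 0.28. Igfbp3, a binding protein for insulin-like growth factors, differed by 0.38, Dcxr, a carbonyl reductase, by 0.74, and Csf2rb, the common beta chain of several haematopoietic cytokine receptors, by 0.88.

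Among the lower genes, Slitrk6, a leucine-rich repeat membrane protein, came nearest to the threshold (adjusted p = 0.0637). It was at 6.63, 6.36, 6.57, 6.12 and 5.15 CPM in controls and at 1.88, 2.83, 1.11 and 1.801 CPM in DKO, all mutants being far below all controls (log2 fold change −1.68, SE 0.227). Alx1, an aristaless-type homeobox gene of mesenchyme, had 8.39, 6.71, 9.32, 8.25 and 5.86 CPM against 1.01, 2.45, 1.38 and 3.40 CPM. Its log2 fold change of −1.91 was the largest of the 24 (SE 0.308, adjusted p = 0.0978). Mecom, a zinc finger factor of nephric and blood lineages, was at 21.2 ± 3.06 CPM in controls and 12.6 ± 2.10 CPM in DKO (−0.75).

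Peg3, an imprinted zinc finger gene expressed from the paternal allele, was at 819 to 988 CPM in controls and 486 to 731 CPM in mutants (log2 fold change −0.65, SE 0.108, adjusted p = 0.0979). Sema3a, a secreted guidance cue, was at 59.7 ± 2.73 and 48.3 ± 2.86 CPM (−0.31). Dpf3, a subunit of BAF chromatin remodelling complexes, was at 2.87 to 4.02 CPM in controls and 1.75 to 2.21 CPM in mutants (−0.82). Lyst, a lysosomal trafficking regulator, and Dse, a dermatan sulfate epimerase, had −0.73 and −0.34. Gm14226, a predicted gene within the span of the agouti locus, had −1.35, and reads of overlapping genes may be shared between them.

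Among noncoding and pseudogene transcripts of that abundance without overlap, Foxd2os, antisense to the mesenchymal forkhead gene Foxd2, was at 12.7 ± 1.72 CPM in controls and 7.38 ± 1.57 CPM in DKO (log2 fold change −0.78, unadjusted p = 0.000444). B930095G15Rik had −0.67. On the higher side stood Gm44215 (0.35) and the pseudogenes Rpl14-ps1 (0.46) and Rbx1-ps (0.48), whose reads can be split with their parent genes.

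Gene lists, written with earlier results of these data known, were read against the background shares, and no list was tested as a set. The list with the largest share of members below an unadjusted p of 0.05 was that of the intermediate mesoderm, the source of the kidney and gonad. Of its 11 genes, 10 were lower and 1 was higher at that level, 8 lay below all controls without overlap, and the median log2 fold change was −0.74 against 0.01 over all genes. Summed over the list, controls were at 184 to 205 CPM and DKO libraries at 116 to 160 CPM, without overlap. The number lower at that level was 8 to 10 over the alternatives. No member passed the adjusted threshold in edgeR's test of the 9 libraries. Sim1 and Pax2 passed with no filter on low counts, with all 18 libraries in 1 fit and without DKO 2, where Wt1 passed too. Sim1 also passed with somite number as covariate, and DESeq2 passed 7 members.

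Wt1, a zinc finger factor of the urogenital ridge, had the largest difference of the list (−1.84, SE 0.489, adjusted p = 0.292). Its controls were at 15.5, 11.7, 19.4, 18.3 and 16.7 CPM and its mutants at 2.33, 10.1, 0.849 and 4.58 CPM. DKO 2 approached the lowest control, and DKO 3 was more than an order of magnitude below every control. Pax2, which with Pax8 specifies the nephric lineage, was at 11.7, 12.1, 9.57, 11.1 and 12.4 CPM against 3.83, 7.29, 3.71 and 5.81 CPM (−1.14, SE 0.196, adjusted p = 0.126). Pax8 was at 6.52 to 9.44 CPM and 1.95 to 5.61 CPM (−1.09). Lhx1, a LIM homeobox gene of the nephric duct, was at 8.67 to 11.6 CPM in controls and at 1.39, 6.46, 3.24 and 5.04 CPM in the mutants (−1.32).

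Sim1, a bHLH-PAS factor, was at 8.93 to 15.6 CPM in controls and 3.34 to 6.29 CPM in DKO (log2 fold change −1.34, SE 0.22, adjusted p = 0.0978). Emx2, a homeobox gene needed for the urogenital tract, had −0.74 with groups that did not overlap. Gata3 (−0.39) and Ret (−0.38), both acting in the nephric duct, did not overlap either. Osr1 (−0.42), the earliest marker of this tissue, and Npnt (−0.26), an extracellular ligand of the nephric duct, did overlap. Gdnf, the ligand of Ret, went the other way: controls were at 4.47, 3.84, 4.21, 5.14 and 3.52 CPM and mutants at 8.03, 6.43, 5.99 and 7.41 CPM. All mutants exceeded all controls for Gdnf, and the log2 fold change was 0.71 (SE 0.147, adjusted p = 0.196).

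Target genes of p53, the factor that halts the cell cycle or starts cell death after damage, had the largest share of higher members at that level. All 12 had higher means in DKO, 9 with an unadjusted p below 0.05, and 7 lay above every control. The median log2 fold change was 0.45, and the summed list was at 426 to 452 CPM in controls and 503 to 594 CPM in mutants. The number higher at that level was 9 or 10 in every alternative. Past the adjusted threshold there were 0, against 4 with DESeq2 or with all 18 libraries in 1 fit.

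Besides Cdkn1a and Sesn2, Ccng1, a cyclin induced by p53, was at 39.5, 43.5, 49.1, 46.3 and 43.3 CPM in controls and at 92.1, 51.4, 78.6 and 63.1 CPM in DKO (0.68, SE 0.142, adjusted p = 0.196). Trp53inp1, which promotes p53 activity, had 11.4 to 15.9 CPM in controls against 32.4, 18.2, 27.7 and 16.8 CPM (0.83). For both, DKO 1 and DKO 3 were the highest, and DKO 2 and DKO 4 lay nearer the controls. Phlda3, an inhibitor of Akt signalling, was at 6.75 to 11.6 CPM in controls and 12.99 to 15.8 CPM in mutants (0.52). The cell death genes Bax (0.26) and Bbc3 (0.25) also did not overlap, with smaller differences. Eda2r (0.76) and Zmat3 (0.19) overlapped between groups. Pmaip1 (0.37), Mdm2 (0.10) and Aen (0.10) had unadjusted p of 0.061, 0.183 and 0.141.

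**Figure D2:**
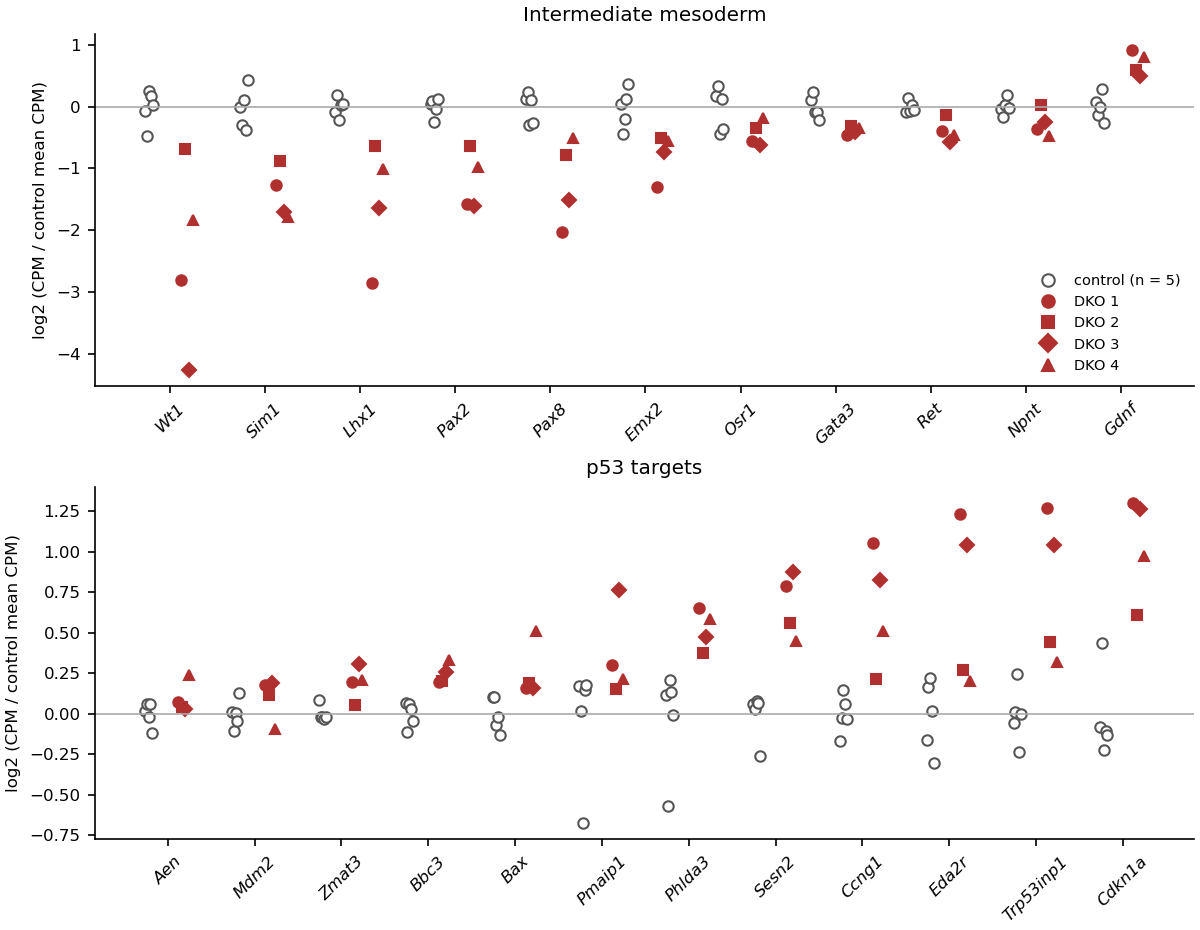
Log2 ratio of each posterior library's CPM to the control mean (vertical axes) for every tested gene of the intermediate mesoderm list (top) and the p53 target list (bottom); open circles are the 5 controls and red symbols the 4 DKO libraries. Wt1 is lowest in DKO 3 (0.849 CPM), Gdnf alone in that list has every DKO library above all controls, and DKO 1 and DKO 3 are the highest for Ccng1 and Trp53inp1.

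The paraxial lineage was followed from the axial bud to the differentiating somite. Of 20 axial bud genes 17 were higher by sign (median 0.16), and 1 was higher and 1 lower at an unadjusted p below 0.05. The number higher at that level was 7 without control 2 or with somite number as covariate, and 4 without DKO 2, with 0 lower in each case. It was 1 without control 1, control 3, control 5, DKO 1 or DKO 3, and 2 without control 4 or DKO 4. The median was 0.09 without control 1 or DKO 3, 0.10 without control 3 and 0.26 without control 2. Sox2, a factor of neural and neuromesodermal progenitors, was at 94.7 ± 4.06 and 116 ± 11.6 CPM (0.29), and Lin28b, a regulator of developmental timing, had −0.16. T (brachyury), which marks the mesoderm-forming bud, was at 95.0 ± 22.4 CPM in controls and 105 ± 20.9 CPM in DKO (unadjusted p = 0.421). Cdx2, a caudal homeobox gene, had a log2 fold change of 0.33 with a p of 0.163.

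Presomitic and segmentation genes, 21 in all, included 3 lower and 0 higher at that level, with a median of 0.03. Without DKO 2 there were 3 of each direction, and 2 were higher without control 2 or control 5. Tbx6, which commits cells to paraxial mesoderm, was at 32.5 ± 4.13 and 38.0 ± 7.42 CPM. The lower members were Epha4, a receptor at somite boundaries (−0.39), Cer1, a secreted antagonist (−0.80), and Mesp1, expressed where the next somite forms (−1.01). Hes7, the segmentation clock repressor, varied within the mutants, at 14.7, 8.22, 31.3 and 30.0 CPM against 10.6 to 19.2 CPM in controls. The groups overlapped for every gene of this list.

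Genes of the young somite tended to be lower. All 12 had lower means in DKO, 5 of them with an unadjusted p below 0.05, and the median log2 fold change was −0.35. Meox1, a homeobox gene of newly formed somites, was at 214, 204, 247, 241 and 231 CPM in controls and at 136, 190, 97.9 and 170 CPM in mutants. Each mutant was below each control, with DKO 2 (24 somites) nearest and DKO 3 (20 somites) farthest (−0.61, SE 0.159, adjusted p = 0.282). Foxc2, a forkhead gene of paraxial mesoderm, was at 70.1 to 101 CPM in controls and 39.9 to 61.7 CPM in DKO (−0.57). Eya1, a transcriptional coactivator, was at 31.9 to 38.3 CPM against 25.1 to 29.1 CPM (−0.33).

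Dmrt2 (−0.89), needed for somite patterning, and Tbx18 (−0.56), a factor of the anterior somite compartment, overlapped between groups. Aldh1a2, which makes retinoic acid in somites, had −0.27 with a p of 0.103, and Foxc1 was level at −0.01. The summed list was at 661 to 905 CPM in controls and at 561, 701, 447 and 635 CPM in DKO 1 to 4. The number lower at that level was 4 to 7 over the alternatives.

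The sclerotome, the part of the somite that forms vertebrae and ribs, had 6 of 14 genes lower and 0 higher at an unadjusted p below 0.05, with a median of −0.27. None of the 14 separated the groups. Pax1, needed for vertebral bodies, was at 34.3, 24.0, 35.2, 31.0 and 42.2 CPM in controls and at 10.5, 30.8, 9.97 and 18.7 CPM in mutants. DKO 2 lay inside the control range and the other mutants below it (−0.92, SE 0.305, adjusted p = 0.392). Meox2 had the same layout, at 14.95 to 23.8 CPM in controls against 5.03, 14.96, 4.51 and 9.26 CPM (−1.11). Among the mutants both genes rose in the order of somite number, 20 in DKO 3, 22 in DKO 1, 23 in DKO 4 and 24 in DKO 2. Meox1, Wt1 and the sums of the early somite and sclerotome lists had the same order. DKO 1 and DKO 3 also carry the female label. The part that stage or sex plays in this order was not tested. Sox5 (−0.41) and Twist1 (−0.53) were also lower at that level, whereas Sox9, the chondrogenic factor, had −0.09. Without DKO 2 the list had 8 lower genes and a median of −0.46, without DKO 3 it had 5 and a median of −0.17, and 4 were lower without DKO 1, DKO 4, control 3 or control 5.

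In the dermomyotome and myotome list 2 of 11 tested genes were lower and 0 higher at an unadjusted p below 0.05, with a median of 0.00 that reached 0.27 without DKO 3. Met, the receptor that guides migrating muscle precursors, was at 19.3 ± 2.23 and 14.1 ± 1.63 CPM (−0.45), and Six4 had −0.25. Neither overlapped between groups.

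**Figure D3:**
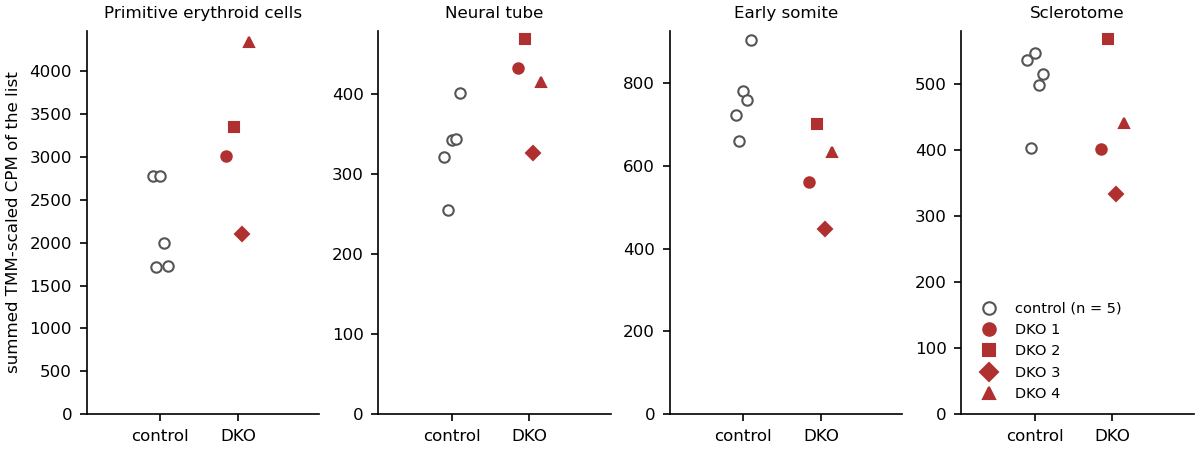
Summed TMM-scaled CPM (vertical axes, each from 0) of 4 gene lists in the 9 posterior libraries, controls as open circles and DKO libraries as red symbols. The early somite sum is lowest in DKO 3 (447 CPM), the sclerotome sum is highest of all libraries in DKO 2 (569 CPM), and the primitive erythroid sum is highest in DKO 4 (4340 CPM).

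Hox genes set axial identity together with Meis and Pbx proteins, and none of the 38 tested passed the adjusted threshold. At an unadjusted p below 0.05, 3 of 12 genes of paralogue groups 1 to 4 were higher, 2 of 11 of groups 5 to 8 and 3 of 15 of groups 9 to 13, and 0 were lower in any of the 3 lists. The medians were 0.18, 0.12 and 0.16. Hoxc5 was at 24.4, 24.2, 19.3, 18.9 and 21.6 CPM against 29.6, 25.0, 26.5 and 31.3 CPM, without overlap though DKO 2 came within 1 CPM of the highest control (0.37, SE 0.108, adjusted p = 0.351). Hoxa10 was at 68.9 to 74.5 CPM in controls and 78.9 to 96.8 CPM in DKO (0.26). Hoxd13, the most posterior gene of its cluster, had −0.47 with an unadjusted p of 0.0543. Leaving out 1 library gave 1 to 5, 1 to 5 and 1 to 4 higher genes, the fewest without control 1 or DKO 1 in each list. The most were found without DKO 2, joined by the omission of control 4 for groups 9 to 13. With all 18 libraries in 1 fit the last 2 lists had 0. On the lower side 1 gene of groups 9 to 13 was found without control 2 or DKO 2, with DESeq2, with no filter on low counts and with the sex label or somite number as covariate, and 1 of groups 5 to 8 without DKO 3. For groups 5 to 8 the median was 0.08 without control 3 and 0.04 without DKO 4, and for groups 9 to 13 it was −0.00 without DKO 2.

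Of the 11 TALE genes 3 were lower at an unadjusted p below 0.05, Meis1 and Meis2 among them, and 0 were higher. Meis3, the third Meis gene, was at 40.7 ± 2.03 and 44.5 ± 6.72 CPM (0.13 with an unadjusted p of 0.212).

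In the retinoic acid pathway 3 of 20 genes were higher and 3 lower at that level, with a median of 0.07. Without DKO 2 there were 2 higher and 6 lower, and 1 higher and 2 lower without DKO 4, with a median of −0.01. On the synthesis side, Rdh10, which makes retinaldehyde from retinol, was at 36.4, 27.1, 35.2, 37.5 and 37.3 CPM in controls and at 23.4, 29.8, 21.8 and 29.5 CPM in DKO. Control 2 fell among the mutants, and the log2 fold change was −0.41 (SE 0.126, adjusted p = 0.369). Aldh1a1, a retinaldehyde dehydrogenase, was low in all libraries, at 0.440 to 0.769 CPM and 0.075 to 0.380 CPM (−1.29), with DKO 1 under its floor of 0.113 CPM. Cyp26a1, which degrades retinoic acid in the axial bud, was at 38.3 to 51.1 CPM in controls and at 48.2, 39.9, 74.5 and 60.8 CPM in mutants (0.38). The binding proteins Crabp2 (0.25) and Rbp4 (1.41) were higher and the corepressor Nrip1 lower (−0.29), all with overlap.

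Other tissues of the piece were read from marker lists. Lateral plate and limb field genes had 4 of 15 lower and 0 higher at an unadjusted p below 0.05 (median −0.27). Gata6, a zinc finger factor of lateral plate and endoderm, was at 11.1 to 15.4 CPM in controls and 6.64 to 9.22 CPM in DKO (−0.65, SE 0.135, adjusted p = 0.196). Fgf10, the limb bud growth factor, was at 4.10 to 5.61 CPM and 1.95 to 3.81 CPM (−0.77), again without overlap. Prrx2 (−0.55) and Isl1 (−0.39) overlapped. In all 18 libraries fitted together, 2 members were lower at that level, and without DKO 3 there were 8, with a median of −0.43.

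All 18 neural tube genes had higher means in DKO, with 4 at an unadjusted p below 0.05 and a median of 0.33. Sox1, a marker of neural progenitors, was at 28.2 to 36.4 CPM in controls and at 39.4, 42.5, 34.1 and 44.7 CPM in mutants (0.33, SE 0.096, adjusted p = 0.342). The floor plate factor Foxa2 (0.30) and Nkx6-2 (0.65), a ventral progenitor gene, were the other members besides Hes5. The summed list was at 256 to 401 CPM in controls and at 432, 469, 326 and 415 CPM in DKO, with DKO 3 inside the control range. The count ranged from 2 to 8 over the alternatives, and the median was 0.20 without control 2. Of 10 neural crest genes 8 were higher by sign, but at that level 2 were lower and 0 higher, namely Snai2 (−0.60), an emigration factor whose groups did not overlap, and Ets1 (−0.32).

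Of 12 surface ectoderm genes 9 were higher by sign, 5 of them at an unadjusted p below 0.05 and 0 lower at that level (median 0.28). Without DKO 4 that count was 2, and without control 3 it was 3. Krt8, a simple epithelial keratin, was at 90.2, 101, 71.5, 89.5 and 64.4 CPM in controls and at 152, 108, 119 and 138 CPM in DKO (0.63, SE 0.135, adjusted p = 0.197). Its partner Krt18 was at 44.0 to 70.4 CPM and 64.7 to 89.1 CPM (0.48). Among 12 gut endoderm genes 3 were higher and 0 lower at that level (median 0.25), namely the tight junction gene Cldn6 (0.34), the epithelial adhesion gene Epcam (0.29) and the hepatic and gut factor Hnf4a (1.12), at 0.863 CPM or less in every library. That count was 1 without DKO 1 (median 0.11), DKO 2 (median 0.15) or control 5, and 0 with all 18 libraries in 1 fit. Without control 3 it was 2, with a median of 0.16. Krt8 and Krt18 are shared by several epithelia.

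Primitive erythroid genes were higher by sign in all 14 cases, 9 of them with an unadjusted p below 0.05, at a median of 0.48. Hbb-bh1, an embryonic beta-like globin, was at 583, 394, 587, 424 and 406 CPM in controls and at 654, 670, 478 and 1000.2 CPM in mutants. DKO 3 lay within the control range and DKO 4 far above it. Gata1, the erythroid master factor, was at 2.05 to 3.36 CPM and 3.56 to 4.35 CPM, without overlap (0.56, SE 0.172, adjusted p = 0.367). The list summed to 1718 to 2772 CPM in controls and 2096 to 4340 CPM in DKO. Without DKO 4 the count was 3, with all 18 libraries fitted together 2, and without DKO 3 it was 12.

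Yolk sac endoderm markers had 2 of 7 tested genes higher at an unadjusted p below 0.05, Afp (1.99) and Ttr (1.71), both low and uneven, and 0 without DKO 1. The summed list was at 9.17 to 13.8 CPM in controls and at 33.0, 25.8, 7.37 and 14.7 CPM in DKO 1 to 4, and Apoa1, Apoa4 and Amn were too low to test. Afp in DKO 1 to 4 was at 18.7, 11.8, 1.27 and 5.04 CPM. The part that carried-over yolk sac or blood plays in any other difference was not tested. Of the forebrain and midbrain markers only 3 of 8 were high enough to test, and their sum did not exceed 3.19 CPM in any library. Emx1 among them was at 0.609 to 1.03 CPM in controls and 1.54 to 2.06 CPM in DKO (1.16).

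Endothelial genes were lower by sign in 12 of 14 cases (median −0.22), but 0 of them reached an unadjusted p below 0.05 on that side. There were 4 such genes without DKO 2, 3 without control 2, and 2 with DESeq2 or with all 18 libraries in 1 fit. Without control 3 there were 0 lower and 2 higher, and the median was −0.12. It was −0.13 without DKO 3 and −0.33 without DKO 2. Etv2, which starts the endothelial and blood lineage, was the exception on the higher side, at 1.41 to 2.35 CPM in controls and 2.39 to 2.83 CPM in DKO (0.61). Heart genes, 9 tested, had a median of −0.37 (0.13 with limma-voom) and 1 lower member at that level. This was Smyd1, a muscle methyltransferase, at 2.08 to 2.88 CPM and 0.875 to 1.93 CPM (−0.99). Nppa and Myh6 were led by control 5, at 7.36 and 9.71 CPM, while control 1 had 0.0526 and 0.158 CPM. That Nppa value was under the control 1 floor of 0.0786 CPM.

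**Figure D4:**
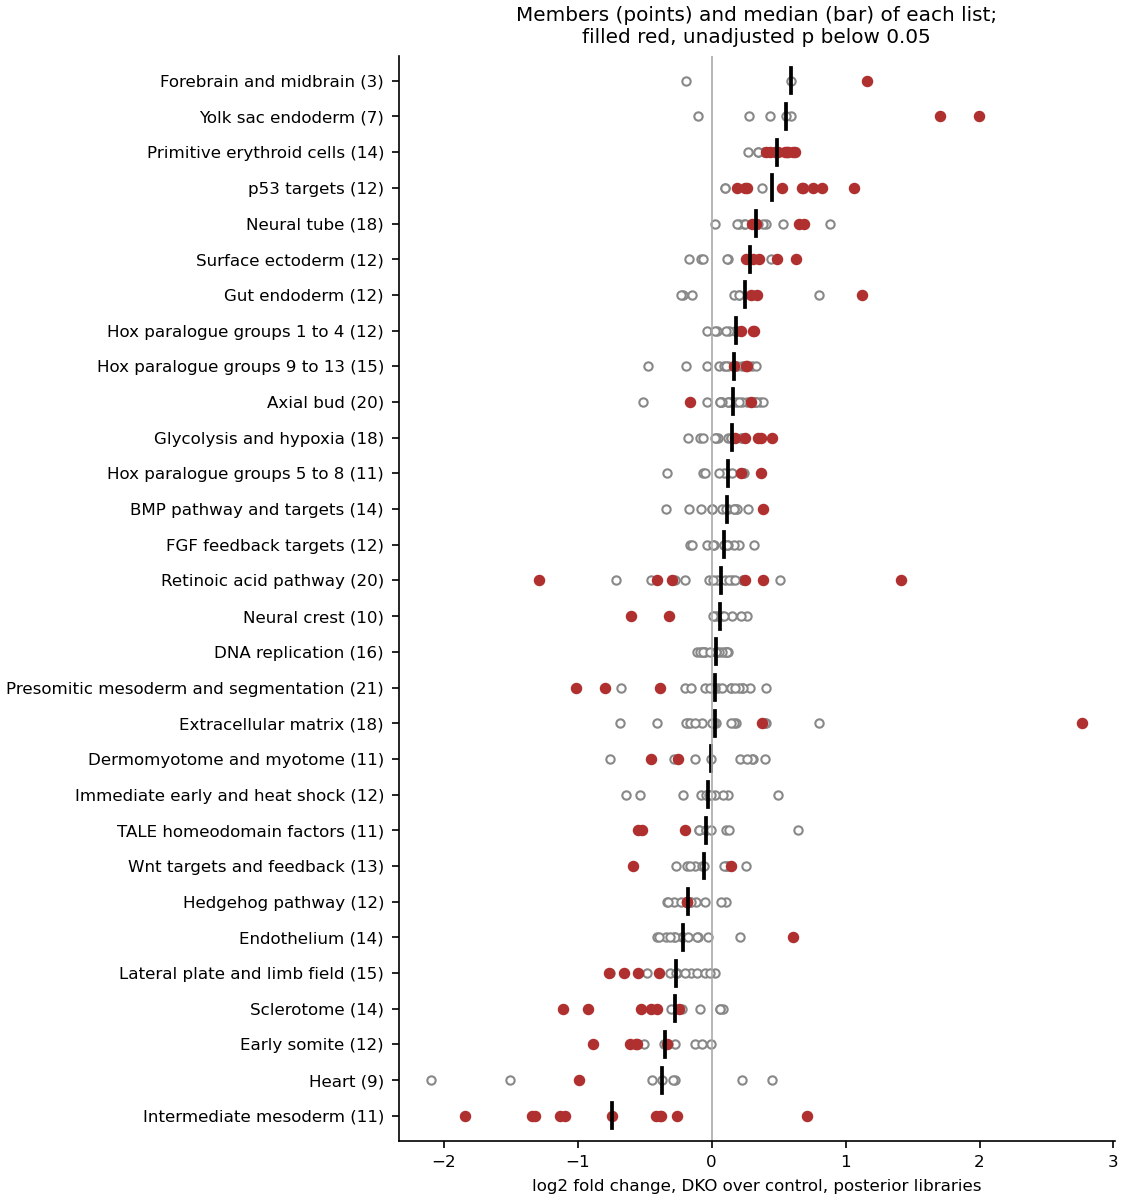
Log2 fold change of DKO over control in the posterior libraries (horizontal axis) for the tested members of each of 30 gene lists, their number in brackets; points are genes, filled where the unadjusted p is below 0.05, and the bar is the median. Intermediate mesoderm lies lowest (median −0.74), and p53 targets and primitive erythroid genes lie to the right with medians of 0.45 and 0.48. Yolk sac endoderm (0.55, 7 genes) and forebrain and midbrain (0.60, 3 genes) lie further right.

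Signalling and cell state lists were read at the same level, an unadjusted p below 0.05. In the Hedgehog pathway 10 of 12 genes were lower by sign and 2 at that level, the transcriptional effectors Gli2 (−0.18) and Gli3 (−0.19), with a median of −0.17. The count was 0 without control 1, control 3, DKO 1 or DKO 4, 5 without control 2 or DKO 2, and 6 with somite number as covariate. Among 13 Wnt targets Nkd1 (0.14) was higher and Daam2 (−0.59) lower. Leaving out 1 library gave 0 to 2 genes in each direction, and 0 were higher with relative log expression size factors, DESeq2 or limma-voom. The lower count was 0 without control 1, control 3, control 4, DKO 1 or DKO 4. FGF feedback targets had 0 of 12 at an unadjusted p below 0.05 and BMP genes 1 of 14, the homeobox target Msx1 (0.38). The BMP list had 3 higher without control 1, and 0 higher and 1 lower without DKO 1. DNA replication genes had 0 of 16, with log2 fold changes from −0.11 to 0.12, and immediate early and heat shock genes had 0 of 12.

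Of 18 glycolysis and hypoxia genes 15 were higher by sign, 5 of them at an unadjusted p below 0.05 and 0 lower at that level, with a median of 0.15. The glucose transporter Slc2a1 was at 682, 656, 560, 535 and 535 CPM in controls and at 856, 681, 791 and 738 CPM in mutants (0.37, SE 0.0953, adjusted p = 0.281). DKO 2 lay just under control 1, the other mutants above all controls. The count ranged from 1 to 8 over the alternatives, 1 without control 3 and 8 without DKO 2, and the median was 0.07 without DKO 4. The extracellular matrix list had 2 of 18 higher and 0 lower at that level, with 5 lower without DKO 2. Its member Lama1, a basement membrane laminin, was at 120 ± 15.9 and 155 ± 17.3 CPM (0.37). Postn, a matricellular protein, had 2.77, but that value rested on DKO 1 at 130 CPM, the other mutants being at 14.1, 3.55 and 7.15 CPM and the controls at 3.80 to 7.92 CPM.

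Genes near the deleted loci and near Dll1 were counted separately. Within 5 Mb of Meis1, 8 of 46 tested genes (17.4%) had an unadjusted p below 0.05, within 5 Mb of Meis2 2 of 82 (2.44%), and within 5 Mb of Dll1 6 of 45 (13.3%), against 11% overall.

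Among genes chosen by p, the mutant libraries did not share the differences evenly. Over the 1754 genes with an unadjusted p below 0.05, DKO 4 was the mutant farthest from the control mean in 62.2% and DKO 3 the nearest in 39.3%, followed by DKO 2 in 33.5%. DKO 4 also stood apart in the principal components, so its distance need not be particular to these genes. The same shares over all genes tested are not reported here.

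The posterior differences were set beside those of the anterior pieces of the same embryos, which are not independent of them. The interaction of region and genotype, which tests whether the 2 effects differ, passed the adjusted threshold for 0 of 16428 genes (0%) with edgeR and for 7 with DESeq2. An unadjusted p below 0.05 was reached by 567 genes (3.45%), and by 860 (5.23%) when the embryo, which gave both pieces, entered as a block. The 5 smallest p with a mean of at least 50 counts belonged to Bnc1, Ephb1, Igfbp3, Itih5 and Ddit4l, the smallest adjusted p being 0.373. Bnc1, a zinc finger gene of epithelia and mesothelium, had a log2 fold change of −0.11 in the posterior and −1.74 in the anterior pieces. Ephb1, a receptor for ephrin-B ligands, had −0.63 and 0.34, and Igfbp3 0.38 and −0.17. Itih5, a matrix-associated inhibitor heavy chain, had −0.48 and 0.63, and Ddit4l, a stress-induced inhibitor of mTOR signalling, 0.83 and −0.19.

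Of 11 intermediate mesoderm genes 10 were lower by sign in the posterior and 9 in the anterior pieces, with a median of −0.74 in the posterior and −0.56 in the anterior pieces. Pax2 had −1.14 and −1.31, Sim1 −1.34 and −1.07, Wt1 −1.84 and −2.12, and the interaction was below an unadjusted 0.05 for 1 of 11 genes, Ret, and for 2 with the embryo as a block. The p53 targets had medians of 0.45 and 0.16, all 12 being higher in both regions, and 6 of the 12 had an interaction p below 0.05, as did 6 with the embryo as a block. Cdkn1a had an interaction p of 0.038 in edgeR (adjusted p = 0.999) and of 0.0568 with that block. Ccng1 had 0.68 in the posterior and 0.08 in the anterior pieces with an interaction p of 0.00261 (adjusted p = 0.999 with edgeR). Early somite genes had medians of −0.35 and −0.05, with 5 of 12 at that level in either fit.

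Primitive erythroid genes differed in direction, with a posterior median of 0.48 and an anterior median of −0.65, and 12 of 14 had an interaction p below 0.05, none past the adjusted threshold. The count was 12 with the embryo as a block and 7 with it as a random effect in limma-voom. Hbb-bh1 had 0.55 and −0.72 with an interaction p of 0.0104 (adjusted p = 0.999 with edgeR). Neural tube genes had medians of 0.33 and 0.34 and were higher by sign in 18 of 18 cases in both regions. 4930481B07Rik had −2.36 and −2.73 with an interaction p of 0.257. A930024N18Rik had an interaction p of 0.000262 (adjusted p = 0.673 with edgeR). It was near the floor in posterior controls and too low to test in the anterior libraries alone, so that p rests on the posterior DKO libraries, the group in which it was high.

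**Figure D5:**
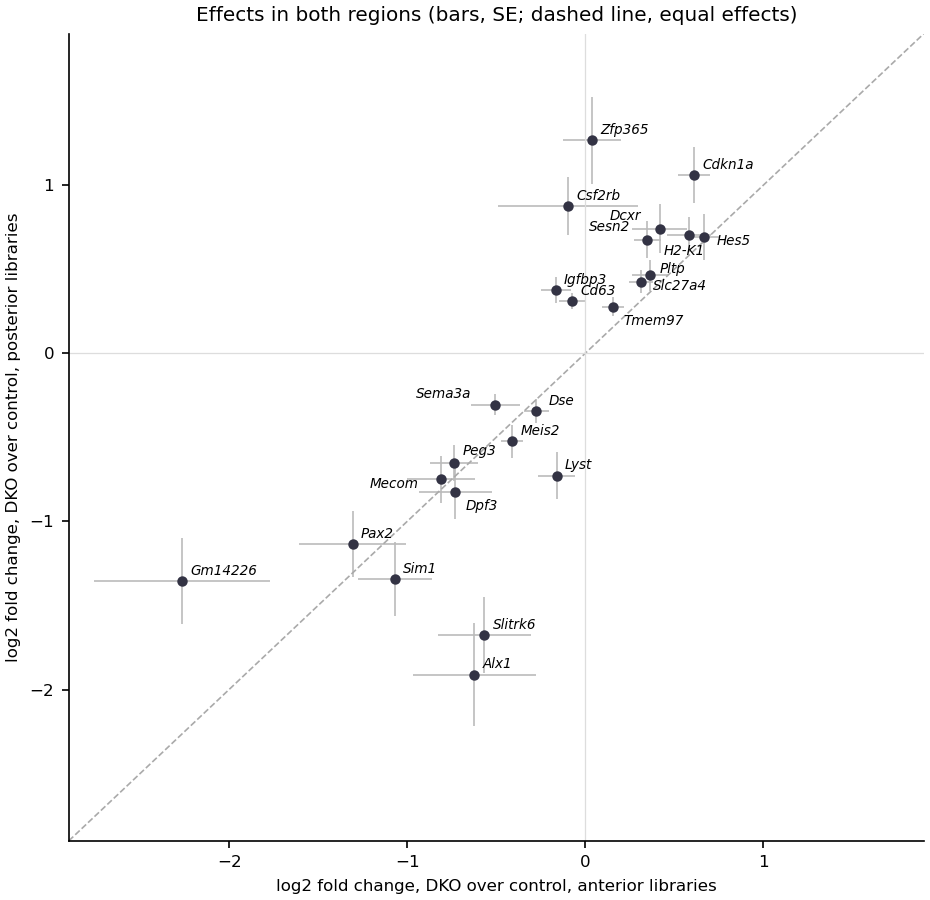
Log2 fold change of DKO over control in the anterior (horizontal axis) and posterior (vertical axis) libraries for the 24 protein-coding genes named by rule, with SE bars and a dashed line of equal effects. Zfp365 (posterior 1.27, anterior 0.04) and Alx1 (−1.91, −0.62) lie away from the line toward the posterior axis, and Pax2 and Sim1 lie near it. The genes were chosen by their posterior values, which favours larger posterior effects, so distance from the line is not a finding. The edgeR interaction adjusted p was 0.906 for Zfp365 and 0.999 for Alx1.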

How the data were processed

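RNA was measured in posterior and anterior pieces of mouse embryos as polyadenylated RNA with NEBNext kits and single-end reads of 61 bp, per the labels' protocols. The authors deposited RSEM expected counts per Ensembl gene, not scaled between libraries. CASAVA, cutadapt, RSEM and the build GRCm38 are named in the submitters' processing notes, and the aligner, versions and strand setting are not given in the sources used here. Multi-mapping reads are shared by RSEM as fractions, so near-identical genes are uncertain. Of 53465 gene identifiers 53274 matched GENCODE M21 (GRCm38) for symbols and coordinates, and 191 did not. All sample columns mapped to labels.

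Counts were rounded and fitted in R 4.3.3 with edgeR 4.0.16 on the 9 posterior libraries alone: filterByExpr (minimum count 10, total 15), TMM scaling, glmQLFit and glmQLFTest, and Benjamini-Hochberg adjustment over all genes tested with a threshold of 0.05. CPM are TMM-scaled, and the SE is the fold change divided by the square root of F. The interaction used all 18 libraries, and anterior values come from the 9 anterior libraries. The code was tested on simulated data. Reads carry no molecular identifiers, so floors of 3 counts cover counting error only.

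Genes were named by rule: Meis1, Meis2, every gene past the threshold, the 12 higher and 12 lower protein-coding genes with the smallest p among those averaging 50 counts or more without overlap, 3 of each direction of other biotypes, up to 5 members of each list with p below 0.05, and 5 interaction genes. Other list members given with values, and the neighbour Zfp687, were chosen after their values were seen. Some genes that the rule covers are not reported here. The comparison, the 30 lists and the rule were chosen with earlier results of these data known, so no list was tested as a set. Alternatives comprised relative log expression or upper quartile size factors, DESeq2 1.42.0, limma-voom (3.58.1), other count filters, unrounded counts, sex or somite number as covariate, all 18 libraries in 1 fit, the embryo as a block for the interaction, and leaving out each library.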

Additional observations from a re-analysis of the deposited data

Results flagged for a closer look

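In 112 named genes, the highest and lowest library of each posterior group were checked by Dixon's criterion, 224 groups in all, of which chance flags about 5%. In 11 (4.91%), about the share chance gives, a library lay far from the rest of its group. Control 5 was low for Sesn2 (18.24 CPM, the other controls being at 22.3 to 23.1) and Smyd1 (2.085 CPM) and high for Sema3a (64.57 CPM), Lin28b (161.3 CPM) and Foxc2 (101.3 CPM, the others at 70.1 to 73.2). Control 2 was high for Cdkn1a (18.28 CPM, the others at 11.6 to 12.8) and low for Rdh10 (27.12 CPM). Control 1 was high for Bnip3 (108.7 CPM) and control 4 low for Lama1 (92.31 CPM). Among the mutants, DKO 2 was high for Itih5 (18.1 CPM, the others at 12.4 to 13.3) and DKO 1 for Postn (130.1 CPM, the others at 3.56 to 14.1).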

How the results depend on the processing

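Each gene named by rule kept its direction in all 2225 values over 20 alternatives. Most of these genes were chosen by p or by lack of overlap in the same libraries, so this outcome was largely fixed by the choice. The 2 genes past the threshold became 156 with DESeq2, 14 with no filter on low counts, 7 with somite number as covariate, 51 with all 18 libraries in 1 fit and 1 with a filter at a mean of 50 counts, which removes A930024N18Rik from the test. Leaving out a library gave 2 to 24, the highest without DKO 2. Genes with an unadjusted p below 0.05 numbered 1240 to 2215 when a library was left out, and 2651 with all 18 libraries. Meis1 passed with DESeq2 (−0.56) and Meis2 with DESeq2 (−0.52) and with all 18 libraries (−0.52). The cause of these shifts was not tested. The fit of all 18 libraries had no term for the embryo, though each embryo gave both pieces. Upper quartile scaling moved the share of higher genes among those with an unadjusted p below 0.05 from 47.9% to 54.0%.

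No replicate block could enter the posterior comparison because each embryo has 1 genotype. With the embryo as a replicate block, 0 interaction genes passed and 860 had an unadjusted p below 0.05. As a random effect the embryo gave 917 such genes, and leaving out an embryo gave 424 to 1130, with 0 to 1 past the threshold, 1 without DKO 2. DESeq2 passed 7. Of 599 list medians under alternatives, 19 from 9 lists had the opposite sign to the value reported. Heart had −0.37 in the main fit and 0.13 with limma-voom. Hox groups 9 to 13 had −0.000638 without DKO 2, while their other omissions reached 0.22. The other 7 lists had medians near 0: dermomyotome (up to 0.27 without DKO 3), extracellular matrix (−0.11 without DKO 1), Wnt (0.04 without DKO 2), FGF (−0.00273 without DKO 3), retinoic acid (−0.01 without DKO 4), presomitic (−0.02 without DKO 1) and immediate early genes (up to 0.05 without control 5). At these depths genes below about 0.2 CPM could not be compared.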
